A study of Homo sapiens with 30 samples.

Results

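The JAK kinases and STAT transcription factors are described here by the mRNA of 9 genes out of 61471 rows in the table of each line. They are the kinases JAK1, JAK2 and TYK2 and the transcription factors STAT2, STAT3, STAT4, STAT5A, STAT5B and STAT6, taken by gene symbol. Other members of both families were not analysed here. All 9 were tested in U87 and in U251, among the 22918 and 23667 genes whose mean reached 0.5 TPM.

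The series followed human glioblastoma lines U87-MG (U87) and U251-MG (U251) through chronic exposure to interferon gamma (IFN-γ) by bulk RNA sequencing. Its authors call U87 mesenchymal-like and U251 proneural-like, and the lines had no STR authentication after receipt. The Untreated group carries a day 3 label. D3, D14 and D28 received IFN-γ for 3, 14 and 28 days at a labelled 1 µg per mL, and D28WO (washout) received it for 14 days followed by 14 days without it. Used here were 28 of 30 libraries: U87 D3 and U87 D14 have 2 each (replicates 2 and 3), and every other group has 3. Replicates within a group were separate culture preparations, so the p-values measure the spread between cultures of a line. The published methods also state that cultures were divided at day 14 into continued IFN-γ and washout. Libraries of different groups may therefore share a culture. Which ones do is not labelled, and the main fit treated all libraries as separate.

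JAK kinases sit on the inner tails of cytokine receptors and phosphorylate STAT proteins, which then form dimers and bind DNA in the nucleus. IFN-γ acts through JAK1 and JAK2, whereas type I interferons act through JAK1 and TYK2 and lead to a complex of STAT proteins with IRF9. Several of these genes are themselves interferon-stimulated, so their mRNA can move while the pathway is in use, and phosphorylation is not seen in RNA.

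Values are TPM, which keep no record of sequencing depth, so the depth of each library is not known here. The published methods state only a minimum. Fold changes are differences of log2(TPM + 1), a scale that understates changes of genes with low values. Genes above 0 TPM numbered 24223 to 28649 per library in U87, where every Untreated library (24223 to 25459) was below every treated library, and 24450 to 30246 in U251. Of 10 glioma and astrocyte markers, 8 reached 0.5 TPM in each line, with VIM highest at 1185 TPM in U87 and 881 TPM in U251. Their summed TPM in U251 had means of 3899 in Untreated, 1787 (D3), 2948 (D14), 1977 (D28) and 2252 (D28WO), and in U87 2273, 2123, 2188, 2225 and 1879. The 8 T and NK lymphocyte markers summed to 1.35 to 5.76 TPM in U87 and 0.378 to 5.63 TPM in U251, with CD2 highest in U87 (1.42 TPM) and CD247 in U251 (0.951 TPM). The 8 myeloid markers, led by CD68 and with TYROBP at 0 in both lines, summed to 233 to 489 TPM in U87 and 87.8 to 178 TPM in U251. Sums in U87 and U251 were 5.99 to 11.4 and 11.4 to 50.2 TPM for 5 endothelial markers (led by KDR), 65.5 to 133 and 18.7 to 51.1 TPM for 4 neuronal markers, and 34.2 to 62.9 and 51.0 to 116 TPM for 5 epithelial markers (led by KRT8). Group means of these sums were not alike either. In the same order, U251 means were 42.0, 14.3, 35.5, 22.1 and 13.7 TPM for endothelial, 113, 57.3, 95.9, 70.3 and 68.7 for epithelial, 21.35, 28.7, 34.7, 44.5 and 35.3 for neuronal and 144, 107, 110.1, 156 and 109 for myeloid markers. The T and NK lymphocyte sums there had means of 1.81, 3.79, 3.80, 3.72 and 2.61 TPM. U87 means were 97.6, 98.8, 130.05, 114 and 70.05 for neuronal, 398, 332, 335, 397 and 248 for myeloid, 10.7, 9.87, 10.2, 7.68 and 7.69 for endothelial, 45.98, 46.4, 61.4, 56.6 and 42.3 for epithelial and 3.05, 2.54, 3.73, 2.62 and 3.94 for T and NK lymphocyte markers. What any of these sums contribute to the results below was not tested, and in bulk RNA fewer cells of a type and less RNA per cell cannot be told apart.

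In U87, 6 of the 9 genes were higher than Untreated at D3 and 0 lower (limma; 7 higher and 0 lower at unadjusted p under 0.05), against 12.4% of all genes higher and 4.28% lower. At D14, 1 was higher and 0 lower (limma; 3 and 0 at unadjusted p under 0.05), against 4.14% and 1.02% of all genes. D28 had 7 higher and 0 lower (limma; 7 and 0 unadjusted), against 17.2% and 6.55%. D28WO had 7 and 0 (limma; 7 and 0 unadjusted), against 28.6% and 13.4%. All these shares are at adjusted p. At unadjusted p under 0.05 (limma), 5402 (D3), 4096 (D14), 5989 (D28) and 7874 (D28WO) of the 22918 genes were higher. Lower were 1848, 1168, 2354 and 3585. Leaving out D3 replicate 2 or D3 replicate 3 took the D3 count from 6 to 3, and fitting Untreated and D3 alone took it to 2. The D14 count was 2 without Untreated replicate 2, 0 without D14 replicate 2 or D14 replicate 3, and 0 with median-ratio scaling or a fit of both groups alone. At D28, median-ratio scaling left 4 genes higher, and at D28WO it left 4 higher and called 1 lower (TYK2). Among all genes it called 2551 higher and 2916 lower at D28, against 3945 and 1500 without scaling. At D28WO these were 4595 and 4722, against 6561 and 3065, and at D14 437 and 322. Quantile scaling gave 4 (D3), 1 (D14), 5 (D28) and 5 (D28WO) higher and 0 lower. It called 1178, 266, 1672 and 3666 of all genes higher and 1056, 215, 1697 and 4391 lower. A fit of both groups alone called 886 of all genes higher and 196 lower at D3, and 54 and 5 at D14. The fit of all groups called 2843 and 980 at D3, and 948 and 234 at D14.

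Between treated groups in U87, D14 against D3 had 0 higher and 3 lower (limma; 0 and 5 at unadjusted p under 0.05), against 1.47% and 3.32% of all genes. The lower count was 1 without D3 replicate 2 or without D14 replicate 3, and 0 when both groups were fitted alone. D28 against D14 had 4 higher and 0 lower (limma; 6 and 0 unadjusted), against 2.94% and 1.12%. Leaving out any of D14 replicate 2, D14 replicate 3, D28 replicate 1, D28 replicate 2 or D28 replicate 3 left 1, as did a fit of both groups alone or a replicate block. A pseudocount of 0.1 or no expression filter left 2. D28WO against D28 had 2 higher and 0 lower (limma; 3 and 0 unadjusted), against 9.90% and 8.44%. At unadjusted p under 0.05 (limma), 1721 of all genes were higher and 2444 lower for D14 against D3. These were 2198 and 1709 for D28 against D14, and 3904 and 3199 for D28WO against D28. With both groups fitted alone, 0 of all genes were called for D14 against D3. For D28 against D14 that fit called 239 of all genes higher and 68 lower, against 673 and 257 with all groups. A replicate block gave 498 and 168 there, no filter 469 and 184, and a pseudocount of 0.1 gave 663 and 230.

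In U251, D3 against Untreated had 3 higher and 2 lower, against 24.9% and 16.0% of all genes. D14 had 1 higher and 2 lower, against 13.8% and 7.31%. In all, 2 genes were called without Untreated replicate 3 and 5 after quantile scaling. Among all genes, quantile scaling called 2334 higher and 2313 lower at D14, against 3277 and 1731 without scaling. D28 had 4 higher and 3 lower, against 25.9% and 14.7%, and D28WO had 3 higher and 0 lower (limma; 3 and 1 at unadjusted p under 0.05), against 14.3% and 13.4%. D14 against D3 had 0 higher and 2 lower (limma; 0 and 2 unadjusted), against 12.8% and 12.6%, and 3 were called without D14 replicate 1. D28 against D14 had 3 higher and 0 lower (limma; 4 and 0 unadjusted), against 11.3% and 9.48%. D28WO against D28 had 3 higher and 0 lower (limma; 3 and 1 unadjusted), against 10.3% and 18.8%. Of these, 1 remained without D28 replicate 2, without D28WO replicate 1 or with no expression filter. With no filter, 1833 of all genes were higher and 3775 lower. At unadjusted p under 0.05 (limma), 4602 of the 23667 genes were higher and 4257 lower at D28WO. These were 4261 and 4475 for D14 against D3, 4239 and 3391 for D28 against D14, and 3248 and 5985 for D28WO against D28.

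The median of all genes was itself shifted against Untreated, by 0.20 log2 (D3), 0.15 (D14), 0.19 (D28) and 0.25 (D28WO) in U87, and by 0.13 (D3), 0.10 (D14), 0.16 (D28) and 0.02 (D28WO) in U251. Median-ratio scaling brought the U87 medians to 0.04, 0.00, 0.04 and 0.07, and quantile scaling brought them to -0.02, -0.01, -0.03 and -0.02. The corresponding U251 medians were 0.04, 0.02, 0.07 and 0.00 by median ratio, and -0.00, -0.02, -0.02 and -0.02 by quantile. For D28WO against D28 in U251 the median was -0.12, and -0.05 and 0.02 after median-ratio and quantile scaling. The median of the 9 members was 0.47 (D3), 0.11 (D14), 0.57 (D28) and 0.46 (D28WO) in U87, and 0.32, -0.25, 0.25 and 0.11 in U251. Below, "relative" marks a log2 fold change with this median of all genes subtracted.

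The share of called genes that were higher depended on scaling. At D3 in U87 it was 74.4% (48.6% by median ratio, 52.7% by quantile), and D14 had 80.2% (57.6%, 55.3%), D28 72.5% (46.7%, 49.6%) and D28WO 68.2% (49.3%, 45.5%). For D14 against D3 in U87 it was 30.7%, and 41.5% by quantile. U251 D3 had 60.9% (50.7%, 49.6%), D14 65.4% (49.7%, 50.2%) and D28 63.9% (51.9%, 47.7%), and D28WO against D28 had 35.5% (48.0%, 51.8%). Among all genes, every library often lay beyond every reference library. In U87, 7870 (D3), 6757 (D14), 5951 (D28) and 8379 (D28WO) of 22918 genes lay above Untreated, and 2894, 2278, 2374 and 3813 below. D14 against D3 had 5229 and 5880, D28 against D14 3919 and 3547, and D28WO against D28 4678 and 3677. In U251, 6979, 5609, 7738 and 5075 of 23667 lay above Untreated, and 4373, 3065, 4412 and 4624 below. In U251 those steps had 4252 and 4601, 4975 and 3981, and 3808 and 6703.

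JAK2, the kinase carried by the IFN-γ receptor chain IFNGR2, lies at chr9:4984390-5129948 on the plus strand (GRCh38, GENCODE 44). In U87 its Untreated libraries held 16.3, 22.8 and 14.7 TPM, D3 30.0 and 33.1, D14 26.8 and 22.3, D28 46.1, 35.4 and 39.8, and D28WO 59.6, 50.8 and 55.7. The D3, D28 and D28WO libraries were all above the Untreated range, whereas D14 overlapped it. JAK2 in U87 rose by 0.80 at D3, 1.15 at D28 and 1.59 at D28WO (adjusted p = 0.0104, 4.35e-04 and 1.33e-05, limma with Benjamini-Hochberg), or by 0.61, 0.96 and 1.34 relative. The fold changes on this scale were 1.74, 2.21 and 3.02. The D3 call was lost without D3 replicate 2 (0.87) or D3 replicate 3 (0.74), after quantile scaling (0.48) and when both groups were fitted alone (0.80). At D14 the value was 0.45 (adjusted p = 0.152, limma with Benjamini-Hochberg), and it was called at 0.63 without Untreated replicate 2. It was as low as 0.33 with 1 library left out and 0.19 among all alternatives. D28 was above D14 by 0.70 in all 3 D28 libraries (adjusted p = 0.0480, limma with Benjamini-Hochberg). That call was lost with a pseudocount of 0.1 (0.72), no filter (0.70), both groups fitted alone (0.70) or a replicate block (0.66). It was also lost without D14 replicate 2 (0.82), D14 replicate 3 (0.57), D28 replicate 1 (0.60), D28 replicate 2 (0.78) or D28 replicate 3 (0.70).

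In U251, JAK2 measured 8.81, 14.4 and 6.53 TPM in Untreated, 54.8, 63.4 and 60.4 at D3, 14.0, 15.8 and 13.4 at D14, 64.7, 52.4 and 52.6 at D28, and 46.8, 48.7 and 48.2 at D28WO. D3, D28 and D28WO stood far above both other groups, and D14 overlapped Untreated at its upper end. JAK2 in U251 rose by 2.53 at D3, 2.46 at D28 and 2.23 at D28WO, with every library above every Untreated library (adjusted p = 1.85e-07, 2.31e-07 and 1.06e-06, limma with Benjamini-Hochberg). These are folds of 5.78, 5.48 and 4.68, and 2.40, 2.29 and 2.21 relative. The D14 value was 0.56 (adjusted p = 0.0541, limma with Benjamini-Hochberg). It was called without Untreated replicate 2 (0.84), and at 0.56 with a filter of 1 TPM or a replicate block. With 1 library left out it was as low as 0.32. JAK2 fell by 1.98 from D3 to D14 in every library and rose by 1.90 from D14 to D28 (adjusted p = 6.17e-06 and 1.01e-05, limma with Benjamini-Hochberg). From D28 to D28WO it was not called (-0.23; adjusted p = 0.407, limma with Benjamini-Hochberg), although every D28WO library lay below every D28 library. The order of its means was D3 (59.5 TPM), D28 (56.6), D28WO (47.9), D14 (14.4) and Untreated (9.93) in U251, and D28WO (55.4), D28 (40.5), D3 (31.5), D14 (24.6) and Untreated (17.9) in U87. In U87 the step from D28 to D28WO (0.45) was not called (adjusted p = 0.0684, limma with Benjamini-Hochberg) and was called with array weights (0.48).

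**Figure D1:**
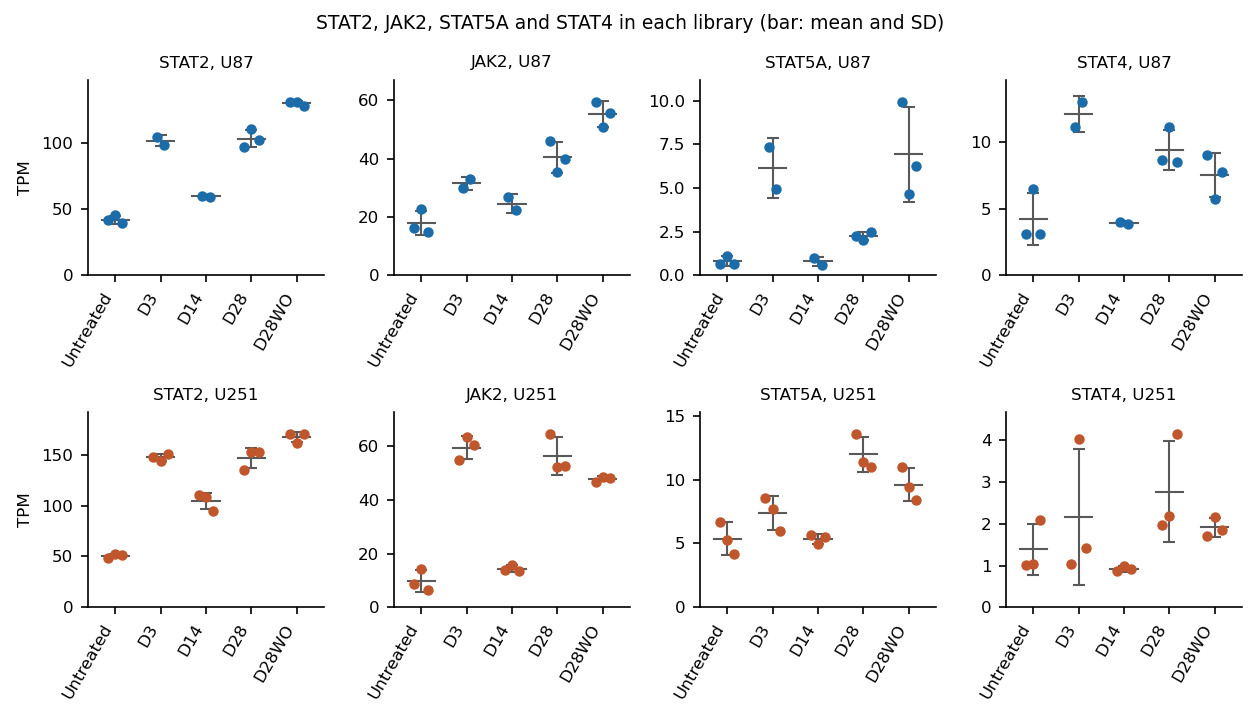
TPM of STAT2, JAK2, STAT5A and STAT4 in every library of U87 and U251 by group, with a bar at the mean and lines at the standard deviation. U87 D3 and D14 have 2 libraries and every other group has 3. Means run from 42.0 TPM (Untreated) to 130.2 TPM (D28WO) for STAT2 and from 17.9 to 55.4 TPM for JAK2 in U87, and from 9.93 (Untreated) to 59.5 TPM (D3) for JAK2 in U251.

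The stretch upstream of JAK2 outside GENCODE exons, chr9:4984140-4984389 on the plus strand (GRCh38.p14, RefSeq), covers all 250 bases before the start. It is shown because JAK2 had the largest change of the 9 genes in U251, and it carries none of the motifs searched below.
JAK2: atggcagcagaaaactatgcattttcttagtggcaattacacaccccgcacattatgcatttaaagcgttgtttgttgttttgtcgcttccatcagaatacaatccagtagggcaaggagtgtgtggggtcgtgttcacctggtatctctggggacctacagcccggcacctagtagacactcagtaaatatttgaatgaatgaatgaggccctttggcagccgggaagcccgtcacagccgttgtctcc

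JAK1, which serves the receptors for both types of interferon and for many interleukins, lies at chr1:64833223-65067754 on the minus strand (GRCh38, GENCODE 44). Its exons overlap LINC01359 by 647 bases on the same strand and RAVER2 by 10 bases, so its values are uncertain to that extent. In U87, Untreated libraries had 76.4, 82.8 and 81.8 TPM, D3 103 and 92.8, D14 92.0 and 91.3, D28 97.1, 98.6 and 98.2, and D28WO 106, 105 and 100.4. Every treated library was above every Untreated library. JAK1 rose by 0.28 at D3, 0.28 at D28 and 0.37 at D28WO in U87 (adjusted p = 0.0202, 0.00792 and 6.67e-04, limma with Benjamini-Hochberg), and these were 0.08, 0.09 and 0.12 relative. Median-ratio scaling ended all 3 calls (0.08 at D3, 0.09 at D28, 0.13 at D28WO). The D3 call was also lost with quantile scaling (0.23), with both groups fitted alone (0.28), without Untreated replicate 1 (0.24) and without D3 replicate 2 (0.21). At D14 the U87 value was 0.19 and not called (adjusted p = 0.137, limma with Benjamini-Hochberg).

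In U251 the JAK1 libraries held 90.0, 89.4 and 98.6 TPM in Untreated, 82.1, 71.9 and 74.3 at D3, 76.9, 77.8 and 75.5 at D14, 82.8, 75.9 and 70.2 at D28, and 85.8, 82.6 and 85.3 at D28WO. All treated libraries lay below the Untreated range, D28WO closest to it. The difference from U87, like every other difference between the lines here, was not tested. JAK1 fell by 0.28 at D3, 0.27 at D14 and 0.28 at D28 (adjusted p = 0.00514, 0.0144 and 0.00561, limma with Benjamini-Hochberg), or by 0.41, 0.36 and 0.44 relative. The D14 call was lost without Untreated replicate 3 (-0.22). D28WO had -0.13 (adjusted p = 0.201, limma with Benjamini-Hochberg). D28WO against D28 was 0.15 and not called (adjusted p = 0.128, limma with Benjamini-Hochberg), but was called without D28 replicate 1 (0.21) and with median-ratio scaling (0.24). No other step between treated groups of JAK1 was called in either line.

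TYK2, the kinase on IFNAR1 and on receptors for the interleukin-12 and interleukin-10 families, lies at chr19:10350533-10380608 on the minus strand (GRCh38, GENCODE 44). In U87 its group means were 88.4 TPM in Untreated, 89.7 (D3), 94.8 (D14), 91.4 (D28) and 86.6 (D28WO), and the libraries of each treated group overlapped those of Untreated. None of the U87 comparisons was called, with values against Untreated of 0.03, 0.11, 0.05 and -0.02. Scaling by median ratio reversed the first 3 of them to -0.17, -0.07 and -0.14, and called D28WO at -0.26, while quantile scaling reversed D3 to -0.02. In U251, TYK2 had 86.3, 85.7 and 82.2 TPM in Untreated, 103, 116 and 103 at D3, 99.7, 91.3 and 97.0 at D14, 94.0, 103 and 106 at D28, and 84.7, 86.2 and 106 at D28WO. D3, D14 and D28 were above the Untreated range, and D28WO overlapped it. TYK2 in U251 rose by 0.33 at D3 and 0.25 at D28 (adjusted p = 0.00570 and 0.0290, limma with Benjamini-Hochberg), or 0.20 and 0.09 relative. Median-ratio scaling ended both calls (0.23 and 0.13). The D28 call was also lost with no filter (0.25), without Untreated replicate 2 (0.26), Untreated replicate 3 (0.23), D28 replicate 2 (0.23) or D28 replicate 3 (0.21). D28WO against D28 (-0.14) was called without D28WO replicate 3 (-0.24). It ran from -0.24 to -0.08 with 1 library left out, and up to -0.05 among all alternatives.

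STAT2, the partner of IRF9 in the type I interferon complex, lies at chr12:56341597-56360203 on the minus strand (GRCh38, GENCODE 44). In U87 it measured 41.4, 45.3 and 39.3 TPM in Untreated, 105 and 98.9 at D3, 60.2 and 59.2 at D14, 97.1, 110.3 and 103 at D28, and 131, 131 and 128 at D28WO. Untreated was lowest, D14 next, D3 and D28 overlapped, and D28WO was above all others. STAT2 in U87 rose by 1.26 (D3), 0.50 (D14), 1.28 (D28) and 1.61 (D28WO) (adjusted p = 1.61e-06, 0.0100, 4.23e-07 and 4.60e-08, limma with Benjamini-Hochberg). The relative values were 1.06, 0.35, 1.09 and 1.36, and the folds 2.40, 1.41, 2.43 and 3.06. The D14 call was lost without D14 replicate 2 (0.49) or D14 replicate 3 (0.51), with median-ratio scaling (0.32) and with both groups fitted alone (0.50), and quantile scaling brought it to 0.33, still called. STAT2 fell by 0.76 from D3 to D14, rose by 0.78 from D14 to D28 and rose by 0.33 from D28 to D28WO, in every library each time (adjusted p = 3.69e-04, 1.27e-04 and 0.00878, limma with Benjamini-Hochberg). The fall was not called when D3 and D14 were fitted alone (-0.76).

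The U251 libraries of STAT2 had 48.7, 52.1 and 51.8 TPM in Untreated, 148, 144 and 150.3 at D3, 110.3, 108 and 95.05 at D14, 135, 152 and 153 at D28, and 170.4, 161 and 171 at D28WO. Every treated library exceeded every Untreated library, D14 was lowest among the treated groups and D28WO highest. STAT2 in U251 rose by 1.52, 1.02, 1.51 and 1.70 at D3, D14, D28 and D28WO (adjusted p = 7.94e-10, 1.74e-07, 7.54e-10 and 2.77e-10, limma with Benjamini-Hochberg). The relative values were 1.39, 0.93, 1.35 and 1.68, and the folds 2.86, 2.03, 2.85 and 3.25. It fell by 0.49 from D3 to D14 and rose by 0.49 from D14 to D28 in every library (adjusted p = 1.15e-04 and 1.41e-04, limma with Benjamini-Hochberg). D28WO was above D28 by 0.19 in all 3 libraries (adjusted p = 0.0473, limma with Benjamini-Hochberg). That call was lost with quantile scaling (0.14), no filter, a replicate block or both groups fitted alone (0.19 each). Leaving out D28 replicate 1 (0.13), D28 replicate 2 (0.22), D28WO replicate 1 (0.18), D28WO replicate 2 (0.22) or D28WO replicate 3 (0.18) also ended it. STAT2 was the member called against Untreated in all 4 comparisons of both lines.

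Motifs were searched on both strands in the 250 bases upstream of RefSeq transcript starts (GRCh38.p14), with 9 of 9 members matched and 17 windows between them. TTCNNNGAA, the letters of a gamma-activated site (GAS), was in 6.57% of the 35116 windows of all genes and in 0 of 17. TTCNNNNGAA was in 5.38% of all windows and in 1 of 17, upstream of STAT5A. GAAANNGAA, a core of the interferon-stimulated response element, was in 6.88% of all windows and in 0 of 17. No match says only that the letters are not in these windows. The stretch outside GENCODE exons upstream of STAT2 is chr12:56360204-56360357 on the minus strand (GRCh38.p14, RefSeq), 154 bases, shown because STAT2 rose in every treated group of both lines.
STAT2: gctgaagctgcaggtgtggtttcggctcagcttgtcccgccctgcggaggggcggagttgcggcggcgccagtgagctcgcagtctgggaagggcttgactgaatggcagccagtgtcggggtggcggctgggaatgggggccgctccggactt

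For comparison, IRF1, the most abundant gene in the list of GAS targets below, carries TTCCCCGAA in the stretch chr5:132490778-132491023 on the minus strand (GRCh38.p14, RefSeq; 246 bases outside GENCODE exons, motif in capitals).
IRF1: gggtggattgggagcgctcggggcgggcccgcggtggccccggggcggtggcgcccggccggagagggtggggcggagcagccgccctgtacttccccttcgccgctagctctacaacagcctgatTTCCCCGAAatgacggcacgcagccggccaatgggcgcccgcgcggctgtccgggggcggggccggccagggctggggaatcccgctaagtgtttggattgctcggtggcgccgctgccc

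STAT4, which relays interleukin-12 and type I interferon signals in lymphocytes, lies at chr2:191029576-191151596 on the minus strand (GRCh38, GENCODE 44), with exons overlapping STAT4-AS1 by 109 bases and a further lncRNA by 152 bases. Its values are uncertain to that extent, as the strand of counting is not stated. In U87, STAT4 had 3.10, 6.49 and 3.08 TPM in Untreated, 11.1 and 13.04 at D3, 4.03 and 3.84 at D14, 8.68, 11.2 and 8.47 at D28, and 9.03, 5.74 and 7.75 at D28WO. D3 and D28 were above every Untreated library, whereas D14 lay within the Untreated range and D28WO overlapped it. STAT4 in U87 rose by 1.38 at D3, 1.05 at D28 and 0.75 at D28WO (adjusted p = 0.00833, 0.0133 and 0.0354, limma with Benjamini-Hochberg), or 1.19, 0.86 and 0.49 relative. It fell by 1.40 from D3 to D14 in both D14 libraries (adjusted p = 0.0258, limma with Benjamini-Hochberg). D28 against D14 was 1.07 and not called (adjusted p = 0.0629, limma with Benjamini-Hochberg), but was called with median-ratio scaling (1.06) or array weights (1.12). All 4 calls depended on the libraries and settings used. The D3 call was lost without D3 replicate 2 (1.49), without D3 replicate 3 (1.28) and with both groups fitted alone (1.38), and quantile scaling brought it to 0.90, still called. The D28 call was lost without Untreated replicate 3 (0.90) or D28 replicate 2 (0.94), with quantile scaling (0.55) and with both groups fitted alone (1.05).

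The D28WO call of STAT4 in U87 was lost without Untreated replicate 1 (0.60), Untreated replicate 3 (0.60), D28WO replicate 1 (0.62) or D28WO replicate 3 (0.72). Quantile scaling (0.16), median-ratio scaling (0.55), no filter, a replicate block and both groups fitted alone (0.75 each) also ended it. For D14 against D3 it was lost without D3 replicate 2 (-1.51), D3 replicate 3 (-1.30), D14 replicate 2 (-1.43) or D14 replicate 3 (-1.38). No filter, a replicate block and both groups fitted alone (-1.40 each) ended it as well. In U251, STAT4 means were 1.38 TPM in Untreated, 2.16 (D3), 0.920 (D14), 2.77 (D28) and 1.91 (D28WO), and 0 of 7 comparisons were called (limma; 1 at unadjusted p under 0.05). Its largest U251 value was 0.93 for D28 against D14 (adjusted p = 0.0626, limma with Benjamini-Hochberg), called with array weights (0.89). The U251 D3 value of 0.32 came with libraries of 1.04, 4.01 and 1.42 TPM and was -0.06 after quantile scaling.

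STAT5A and STAT5B, which carry signals of growth hormone, prolactin and interleukin-2, are near-identical paralogs side by side at chr17:42287547-42311943 (plus strand) and chr17:42199176-42288633 (minus strand; GRCh38, GENCODE 44). Their exons overlap by 415 bases on opposite strands, and reads may be shared between them, so the values of both are uncertain. The STAT3 gene lies 1380 bases from STAT5A. In U87, STAT5A had 0.652, 1.12 and 0.615 TPM in Untreated, 7.34 and 4.94 at D3, 0.975 and 0.593 at D14, 2.24, 2.02 and 2.46 at D28, and 9.95, 4.64 and 6.24 at D28WO. D3 and D28WO were highest, D28 lay between, and D14 overlapped Untreated. STAT5A in U87 rose by 1.98 at D3, 0.86 at D28 and 2.10 at D28WO (adjusted p = 0.00175, 0.0448 and 1.26e-04, limma with Benjamini-Hochberg), or 1.79, 0.67 and 1.85 relative. The folds on this scale were 3.95, 1.82 and 4.29, which low values compress. With a pseudocount of 0.1 the log2 values were 2.82, 1.43 and 2.95, and with quantile scaling 1.52, 0.42 and 1.56. It fell by 1.99 from D3 to D14 in both D14 libraries and rose by 1.24 from D28 to D28WO in all 3 (adjusted p = 0.00564 and 0.0104, limma with Benjamini-Hochberg).

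The D28 call of STAT5A in U87 was lost without Untreated replicate 1 (0.81), Untreated replicate 3 (0.79), D28 replicate 1 (0.86), D28 replicate 2 (0.91) or D28 replicate 3 (0.81). Quantile scaling (0.42), median-ratio scaling (0.77), array weights (0.84), no filter and a replicate block (0.86 each) ended it too. The fall from D3 to D14 was not called without D3 replicate 2 (-1.74), without D14 replicate 3 (-1.83) or with both groups fitted alone (-1.99). In U251, STAT5A had 6.69, 5.27 and 4.17 TPM in Untreated, 8.54, 7.67 and 5.94 at D3, 5.63, 4.94 and 5.50 at D14, 13.6, 11.3 and 11.01 at D28, and 10.99, 9.43 and 8.38 at D28WO. D28 and D28WO were above Untreated without overlap, whereas D3 and D14 overlapped it. STAT5A in U251 rose by 1.04 at D28 and 0.74 at D28WO (adjusted p = 4.39e-04 and 0.00722, limma with Benjamini-Hochberg), or 0.87 and 0.73 relative. D28 was above D14 by 1.02 in every library (adjusted p = 0.00116, limma with Benjamini-Hochberg). Quantile scaling brought the D28 value to 0.62, still called, and the D28WO call was lost with both groups fitted alone (0.74). At D3 the value was 0.40 (adjusted p = 0.0959, limma with Benjamini-Hochberg). It was called without Untreated replicate 1 (0.55), without D3 replicate 3 (0.53) or with a replicate block (0.40). It was as low as 0.26 with 1 library left out and 0.11 among all alternatives.

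The stretch chr17:42287189-42287438 on the plus strand (GRCh38.p14, RefSeq; 250 bases outside GENCODE exons) upstream of STAT5A holds TTCCTCTGAA, shown in capitals. The match describes letters only, and binding was not measured.
STAT5A: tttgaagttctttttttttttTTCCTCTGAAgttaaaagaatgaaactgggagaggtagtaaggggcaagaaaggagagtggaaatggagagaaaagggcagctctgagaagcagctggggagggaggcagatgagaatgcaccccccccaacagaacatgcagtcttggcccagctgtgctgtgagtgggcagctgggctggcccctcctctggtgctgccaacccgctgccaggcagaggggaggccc

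STAT5B in U87 had group means of 32.1 TPM in Untreated, 31.4 (D3), 29.3 (D14), 29.4 (D28) and 35.5 (D28WO), with 0 of 7 comparisons called (limma; 0 at unadjusted p under 0.05). Its values at D3 (0.01) and D28WO (0.17) turned to -0.25 and -0.14 with quantile scaling and to -0.19 and -0.06 with median-ratio scaling. In U251, STAT5B had 64.0, 63.5 and 58.9 TPM in Untreated, 59.8, 48.5 and 60.6 at D3, 60.8, 49.1 and 40.0 at D14, 46.2, 43.8 and 44.6 at D28, and 62.9, 58.3 and 60.1 at D28WO. The D28 libraries were below all of Untreated and D28WO. D3 lay above D28 and overlapped Untreated and D28WO, and D14 spread across the D28, Untreated and D28WO ranges. STAT5B in U251 fell by 0.46 at D28 and rose by 0.42 from D28 to D28WO, in 3 of 3 libraries each (adjusted p = 0.00817 and 0.0194, limma with Benjamini-Hochberg). Those were -0.62 and 0.54 relative. The rise was not called with no filter (0.42), without D28 replicate 2 (0.40), D28 replicate 3 (0.42) or D28WO replicate 1 (0.39). At D14 the U251 value of -0.33 (adjusted p = 0.0738, limma with Benjamini-Hochberg) was called without D14 replicate 1 (-0.48), with array weights (-0.38), quantile scaling (-0.39) or median-ratio scaling (-0.42). D14 against D3 (-0.18) was called without D14 replicate 1 (-0.33). With 1 library left out, D14 against D3 ran from -0.33 to -0.04, and D14 against Untreated from -0.48 to -0.18.

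STAT6, the factor of interleukin-4 and interleukin-13 signalling, lies at chr12:57095408-57132139 on the minus strand (GRCh38, GENCODE 44), with exons overlapping LRP1 by 59 bases and NAB2 by 69, which leaves its values uncertain. In U87 it had 71.7, 73.9 and 62.0 TPM in Untreated, 92.2 and 99.2 at D3, 75.9 and 78.3 at D14, 103, 106 and 99.9 at D28, and 94.7, 86.2 and 105 at D28WO. All treated libraries exceeded Untreated, D14 by the least. STAT6 in U87 rose by 0.47 at D3, 0.57 at D28 and 0.46 at D28WO (adjusted p = 0.00886, 9.57e-04 and 0.00144, limma with Benjamini-Hochberg), or 0.27, 0.38 and 0.21 relative. Median-ratio scaling brought them to 0.27, 0.38 and 0.22, still called. The D3 call was lost without D3 replicate 3 (0.41) and with both groups fitted alone (0.47). At D14 the value of 0.16 (adjusted p = 0.365, limma with Benjamini-Hochberg) turned to -0.02 with median-ratio scaling. D28 was above D14 by 0.41 in all 3 libraries (adjusted p = 0.0370, limma with Benjamini-Hochberg). This was lost without D14 replicate 2 (0.39), D14 replicate 3 (0.43), D28 replicate 1 (0.41), D28 replicate 2 (0.39) or D28 replicate 3 (0.43), with no filter (0.41), both groups fitted alone (0.41) or a replicate block (0.40).

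In U251, STAT6 was near the filter at 1.52, 1.66 and 1.43 TPM in Untreated, 1.2, 1.03 and 1.56 at D3, 0.605, 0.908 and 1.49 at D14, 1.23, 1.43 and 1.503 at D28, and 0.877, 0.486 and 0.783 at D28WO. D28WO was below every Untreated library and the other groups overlapped them. None of the 7 U251 comparisons of STAT6 was called (limma; 2 at unadjusted p under 0.05). Its D28WO value was -0.57 (adjusted p = 0.0723, limma with Benjamini-Hochberg), called with both groups fitted alone (-0.57) or array weights (-0.60), and its D14 value of -0.36 was called after quantile scaling (-0.74). Mean STAT6 in Untreated was 69.2 TPM in U87 and 1.53 TPM in U251.

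STAT3, the factor of the interleukin-6 family, lies at chr17:42313324-42388540 on the minus strand (GRCh38, GENCODE 44). In U87 it had 71.3, 68.3 and 69.2 TPM in Untreated, 80.8 and 82.0 at D3, 67.1 and 72.1 at D14, 83.2, 88.2 and 83.9 at D28, and 82.9, 75.9 and 82.4 at D28WO. D3, D28 and D28WO were above Untreated, and D14 overlapped it. STAT3 in U87 rose by 0.29 at D28 (adjusted p = 0.00911, limma with Benjamini-Hochberg), or 0.10 relative, and median-ratio scaling ended that call (0.09). D28WO was higher by 0.20 (adjusted p = 0.0242, limma with Benjamini-Hochberg), yet -0.05 relative, and its direction turned to -0.03 with median-ratio scaling. The D28WO call was lost with quantile scaling (0.10), without Untreated replicate 2 (0.19), D28WO replicate 1 (0.18) or D28WO replicate 3 (0.19). D3 had 0.22 (adjusted p = 0.0553, limma with Benjamini-Hochberg), or 0.02 relative, called with no filter or a filter of 1 TPM (0.22 each). D28 was above D14 by 0.29 in 3 of 3 libraries (adjusted p = 0.0493, limma with Benjamini-Hochberg). That was lost with a pseudocount of 0.1 (0.29), median-ratio scaling (0.27), both groups fitted alone (0.29) or a replicate block (0.28). It was also lost without D14 replicate 2 (0.24), D14 replicate 3 (0.34), D28 replicate 1 (0.30), D28 replicate 2 (0.26) or D28 replicate 3 (0.30).

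In U251, STAT3 had 141, 138 and 147 TPM in Untreated, 126, 127 and 117 at D3, 118, 123 and 117 at D14, 117, 110.0 and 119.7 at D28, and 138, 132 and 136 at D28WO. D3, D14 and D28 were below every Untreated library, and D28WO reached into the Untreated range. STAT3 in U251 fell by 0.20 at D3, 0.25 at D14 and 0.30 at D28 (adjusted p = 0.00671, 0.00355 and 4.12e-04, limma with Benjamini-Hochberg), or by 0.33, 0.35 and 0.46 relative. Median-ratio scaling gave -0.31 at D3. From D28 to D28WO it rose by 0.23 in 3 of 3 libraries (adjusted p = 0.00422, limma with Benjamini-Hochberg), and D28WO against Untreated was -0.07 (adjusted p = 0.394, limma with Benjamini-Hochberg). D14 against D3 (-0.05) and D28 against D14 (-0.05) were not called.

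Genes with every library beyond the reference group in both lines, but in opposite directions, were counted over the 20473 genes tested in both lines. Against Untreated, D3 had 2 of the 9 members (6.77% of all genes), D14 had 1 (6.41%), D28 had 2 (6.46%) and D28WO had 2 (6.22%). Between treated groups there were 0 of the 9 for D14 against D3 (6.58% of all genes) and for D28 against D14 (4.44%), and 3 for D28WO against D28 (8.85%). These counts rest on the overlap of libraries and are not tests by limma.

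**Figure D2:**
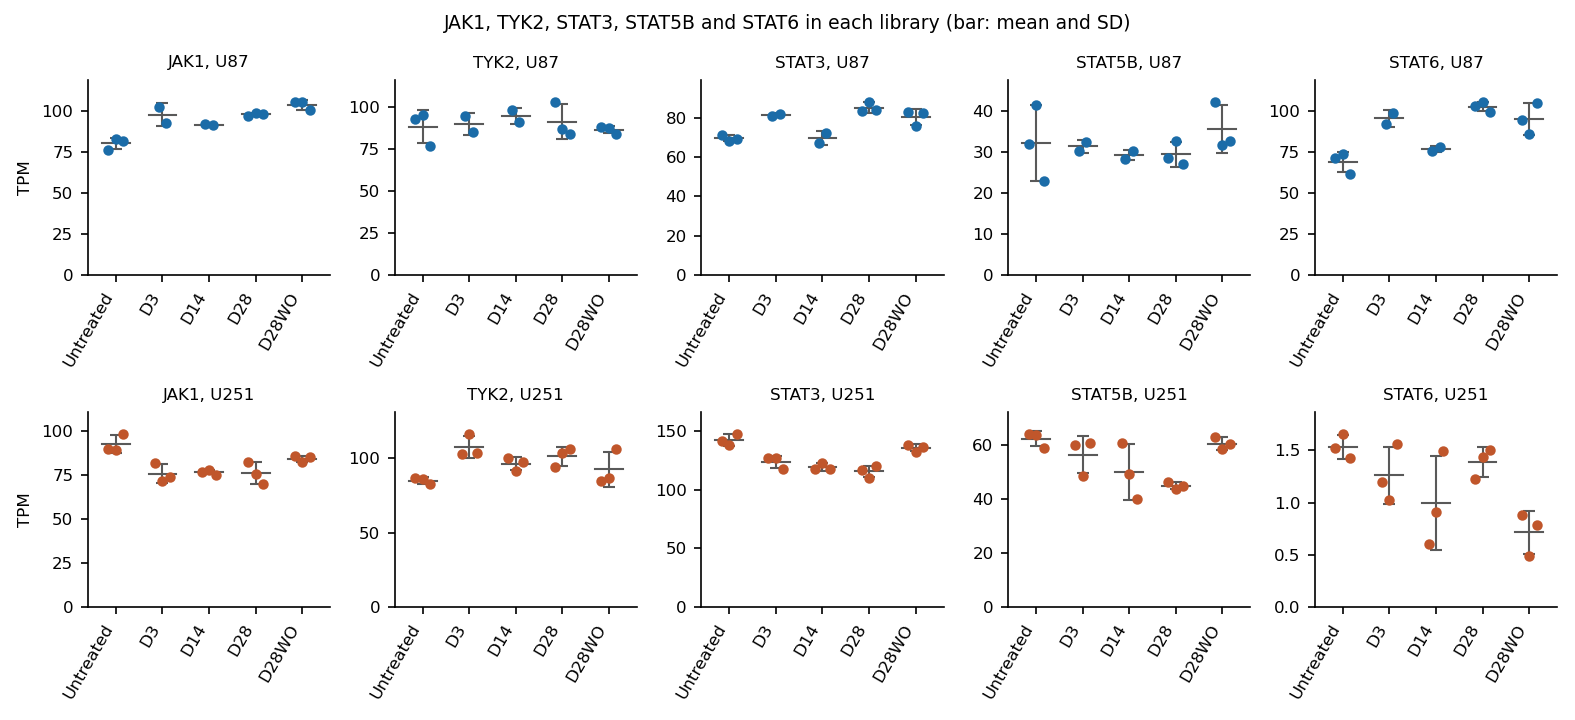
TPM of JAK1, TYK2, STAT3, STAT5B and STAT6 in every library of U87 and U251 by group, with a bar at the mean and lines at the standard deviation. STAT6 means run from 69.2 (Untreated) to 103 TPM (D28) in U87 and from 0.716 (D28WO) to 1.53 TPM (Untreated) in U251. STAT3 means run from 115 (D28) to 142 TPM (Untreated) in U251.

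**Figure D3:**
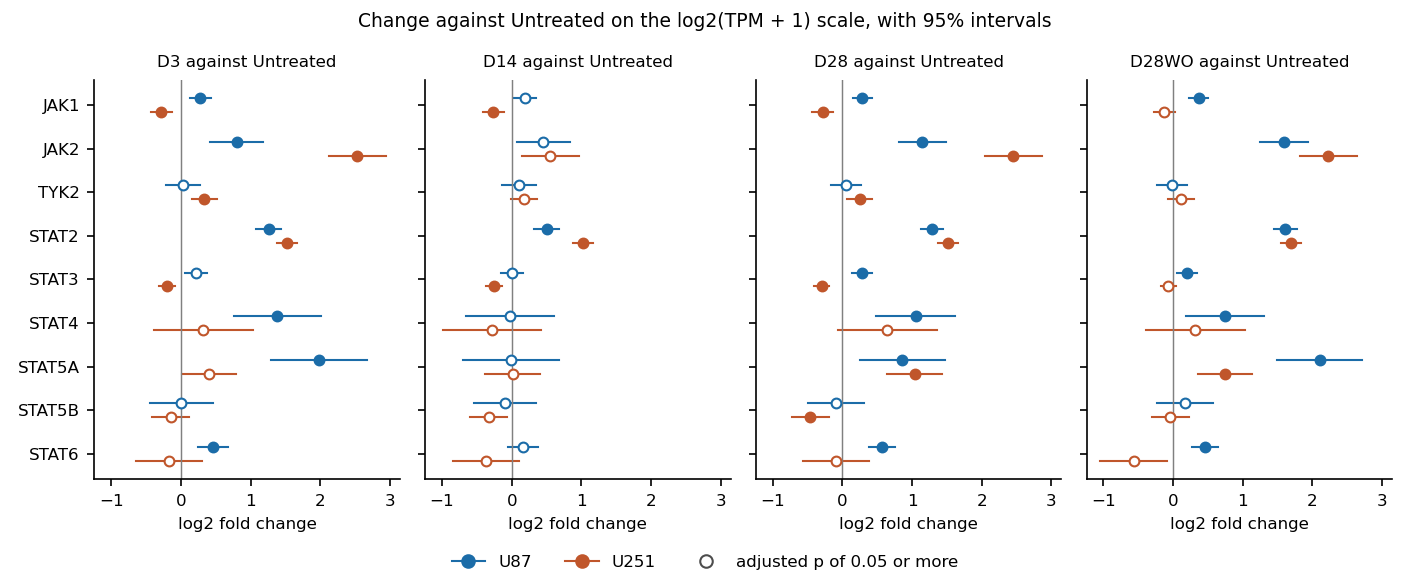
Log2 fold change with 95% interval of each member against Untreated in U87 and U251, filled where adjusted p is under 0.05 by limma with Benjamini-Hochberg. JAK2 in U251 stands at 2.53, 0.56, 2.46 and 2.23, and STAT2 in U87 at 1.26, 0.50, 1.28 and 1.61. STAT3 at D28WO in U87 stands at 0.20 and turned to -0.03 with median-ratio scaling. All 4 comparisons of a line share its Untreated libraries.

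**Figure D4:**
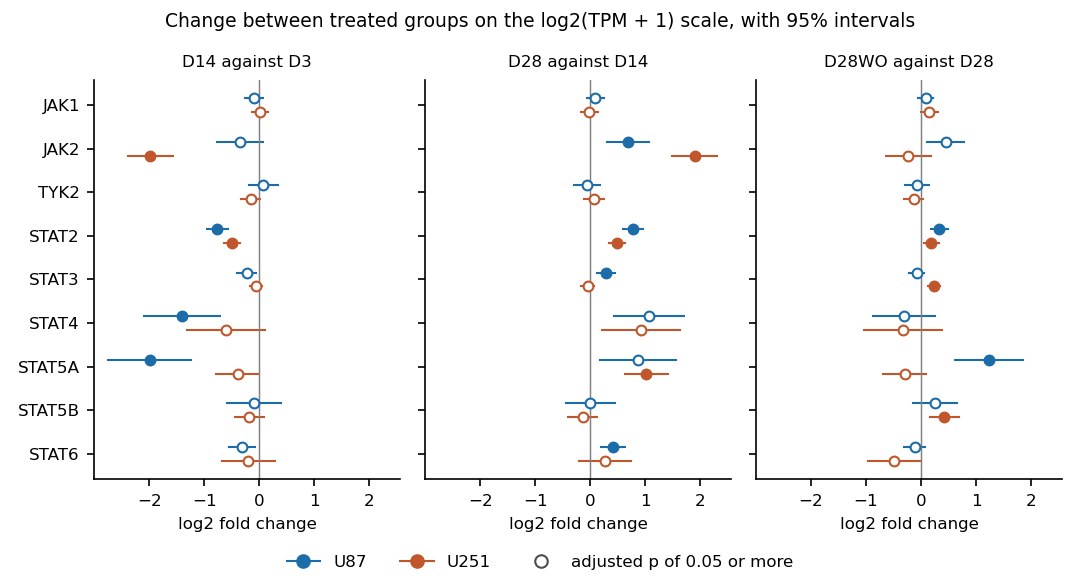
Log2 fold change with 95% interval of each member for D14 against D3, D28 against D14 and D28WO against D28, filled where adjusted p is under 0.05 by limma with Benjamini-Hochberg. JAK2 in U251 stands at -1.98, 1.90 and -0.23, STAT2 in U87 at -0.76, 0.78 and 0.33, and STAT5A in U87 at -1.99, 0.87 and 1.24.

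Likeness to each member was taken as the lower of the correlations over the 13 U87 and 15 U251 libraries, among genes whose mean reached 5 TPM in both lines. STAT2 was most like APOL6 (0.984) and ZNFX1 (0.978). JAK2 was most like SLC1A4 (0.963) and INHBE (0.958), and STAT5A was most like CCDC71L (0.909) and C2 (0.887). STAT3 was most like ARID5B (0.835) and FBXL5 (0.833), JAK1 like RCAN1 (0.855) and OTOGL (0.850), and STAT4 like TAPBP (0.799) and PDIA3P1 (0.707). For STAT5B (MIR1915HG, 0.726; VAV2, 0.708), STAT6 (EHD3, 0.738; PRDM2, 0.728) and TYK2 (CSKMT, 0.704; CNTRL, 0.702) the highest values were lower. The coefficients run across libraries and include the differences between groups. These coefficients are descriptions and were not tested.

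Genes around the pathway were counted in lists drawn from general knowledge, with earlier results of these data known. Some genes, such as SOCS1, CISH, BCL6, IL4R and OSMR, are in more than 1 list, so the list counts are not separate evidence. For counts after scaling, all genes called in U87 at D3, D14, D28 and D28WO were as follows. Median-ratio scaling had 1824, 437, 2551 and 4595 higher and 1929, 322, 2916 and 4722 lower. Quantile scaling had 1178, 266, 1672 and 3666 higher and 1056, 215, 1697 and 4391 lower. In U251, median-ratio scaling had 4828, 2560, 4976 and 3115 higher and 4700, 2586, 4603 and 3446 lower. Quantile scaling in U251 had 4606, 2334, 4271 and 3210 higher and 4684, 2313, 4684 and 3422 lower. Beside every list, the shares of all genes higher without scaling were 12.4% (D3), 4.14% (D14), 17.2% (D28) and 28.6% (D28WO) in U87. In U251 they were 24.9%, 13.8%, 25.9% and 14.3%. Those lower were 4.28%, 1.02%, 6.55% and 13.4% in U87 and 16.0%, 7.31%, 14.7% and 13.4% in U251. At unadjusted p under 0.05 (limma), 5402, 4096, 5989 and 7874 of 22918 genes in U87 were higher and 1848, 1168, 2354 and 3585 lower. In U251 these were 7003, 5139, 7375 and 4602 of 23667 higher and 4428, 2700, 4041 and 4257 lower. Of 8 genes commonly listed as GAS targets, U87 had 7, 0, 8 and 8 higher in the comparisons of D3, D14, D28 and D28WO with Untreated, and 0 lower each time (limma; 7, 0, 8 and 8 higher at unadjusted p under 0.05). The medians were 1.78, 0.08, 1.75 and 1.97. U251 had 8, 6, 8 and 8 higher and 0 lower (limma; 8 higher and 0 lower unadjusted at D14), with medians of 3.25, 1.25, 3.47 and 3.60. IRF1, a transcription factor, has exons overlapping IRF1-AS1 by 2805 bases and a further gene by 486 on the opposite strand, so its values are uncertain to that extent. It had U87 means of 133, 448, 122, 480 and 510 TPM from Untreated to D28WO, and rose by 1.74 at D3, 1.84 at D28 and 1.93 at D28WO, with -0.13 at D14 not called. In U251, IRF1 rose by 2.04, 1.08, 2.08 and 2.13. GBP1, a guanylate-binding GTPase, rose in U87 by 2.61 at D3, 2.78 at D28 and 2.59 at D28WO and had -0.07 at D14, whereas in U251 it rose by 3.23, 1.68, 3.33 and 3.29. Between D3 and D14, 7 of the 8 fell in U87 (3.32% of all genes) and 8 in U251 (12.6%), and between D14 and D28 the same numbers rose (2.94% and 11.3% of all genes). With only D3 and D14 fitted, 0 of the 8 and 0 of all genes were called in U87, so the U87 fall rests on the fit of all groups.

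Of 12 genes commonly listed as targets of STAT2 with IRF9, U87 had 11, 3, 11 and 11 higher at D3, D14, D28 and D28WO (medians 1.67, 0.11, 1.69 and 1.34), with 0 lower at D3, D14 and D28 (limma; 11, 3 and 11 higher and 0 lower unadjusted) and 1 lower at D28WO. Quantile scaling gave 9, 9 and 8 higher at D3, D28 and D28WO. The D14 number was 1 without D14 replicate 2 or without D14 replicate 3, and the D28WO number lower was 0 without Untreated replicate 2, Untreated replicate 3, D28WO replicate 1 or D28WO replicate 2. U251 had 12 of 12 higher in all 4 comparisons, with medians of 2.40, 2.01, 2.73 and 2.74. IFI6, an interferon-induced mitochondrial protein, rose in U87 by 0.76, 0.84 and 1.00 at D3, D28 and D28WO and had -0.18 at D14, while in U251 it rose by 2.13, 1.93, 2.82 and 2.32. ISG15, a ubiquitin-like modifier, rose in U87 by 0.91, 0.85 and 0.99 with 0.06 at D14, and in U251 by 2.49, 2.10, 2.63 and 3.06. Of 7 cofactors of STAT proteins, U87 had 2, 0, 2 and 5 higher and 0 lower (limma; 3, 0, 4 and 5 higher unadjusted), and U251 had 6, 3, 4 and 4 higher and 0 lower (limma; 6, 3, 4 and 5 unadjusted). The U87 D28WO number was 3 without Untreated replicate 3 or D28WO replicate 1 and with either scaling. SH2B1, an adaptor of JAK2, was called in neither line (0.24 at D28 in U87, called without D28 replicate 3, range 0.14 to 0.38). NMI, which binds STAT proteins, rose in U87 by 1.04, 1.23 and 1.47 with 0.21 at D14, and in U251 by 1.58, 0.61, 1.55 and 1.79. IRF9, the DNA-binding partner of STAT2, rose in U87 by 1.16, 1.21 and 1.33 with 0.08 at D14, and in U251 by 1.54, 1.35, 1.56 and 1.72.

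**Figure D5:**
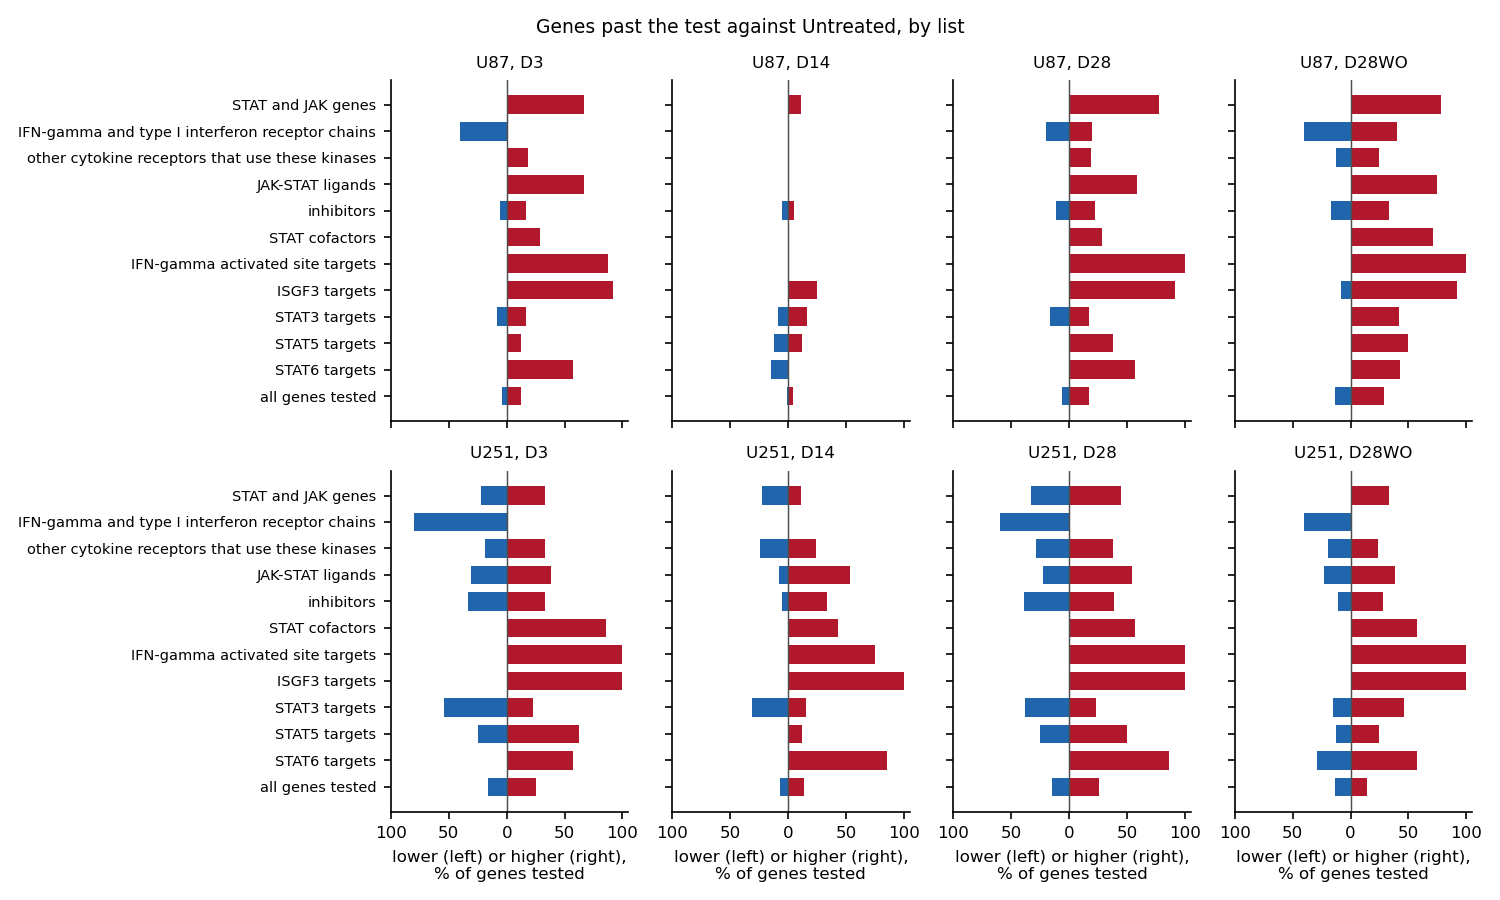
Percent of tested genes called higher or lower against Untreated in each pathway list, by comparison and line. The list named for IFN-γ and type I interferon receptor chains also holds IL10RB. GAS targets are 7, 0, 8 and 8 of 8 higher in U87 and 8, 6, 8 and 8 of 8 higher in U251, and 0 lower.

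Upstream of the kinases, IFNGR2, the chain that carries JAK2, fell in U87 by 0.44 at D3 and 0.51 at D28, and in U251 by 0.69 at D3, 0.47 at D28 and 0.51 at D28WO. The U87 D3 call was lost when any 1 of the 5 libraries compared was left out (-0.53 to -0.36). Other chains went the other way in U87, where IFNGR1 had 41.7, 34.7 and 33.0 TPM in Untreated and 61.6, 63.7 and 61.9 at D28WO. IFNAR2 in U87 had 38.3, 42.6 and 33.8 TPM in Untreated and 64.2, 51.9 and 48.4 at D28WO. IFNAR1, the chain that carries TYK2, fell in U251 by 0.31 at D3 and 0.21 at D28. Its D28WO values of -0.18 in each line were called, but not without Untreated replicate 2 or D28WO replicate 1 in U87 (range -0.20 to -0.15) or with any 1 of the 6 libraries left out in U251 (range -0.19 to -0.16). The receptor chains counted were IFNGR1, IFNGR2, IFNAR1, IFNAR2 and IL10RB, the last of which is not a chain of the IFN-γ or type I receptors. Of these 5, U251 had 0 higher and 4, 0, 3 and 2 lower at D3, D14, D28 and D28WO. At unadjusted p under 0.05 (limma), 4, 3, 3 and 2 were lower. The D28WO number lower was 1 without any 1 Untreated replicate, without D28WO replicate 1 or D28WO replicate 2. Without D28WO replicate 3, 1 chain was called higher. At D14 in U251, 1 was called lower without D14 replicate 1. U87 had 0, 0, 1 and 2 higher and 2, 0, 1 and 2 lower (limma; 1, 1, 2 and 2 higher and 2, 0, 1 and 2 lower unadjusted). In U87 the number higher was 0 at D28 and 1 at D28WO with either scaling, and median-ratio scaling gave 3 lower at D3 and 2 at D28. The U87 D3 number lower was at most 1 with any 1 library left out, the D28 number higher was 0 without Untreated replicate 3, D28 replicate 2 or D28 replicate 3, and the D28WO number lower was at most 1 without Untreated replicate 1, Untreated replicate 2, D28WO replicate 1 or D28WO replicate 3. Of 16 other cytokine receptors tested in U87, 3, 0, 3 and 4 were higher (12.4%, 4.14%, 17.2% and 28.6% of all genes) and 0, 0, 0 and 2 lower (4.28%, 1.02%, 6.55% and 13.4%; limma, 4, 3, 3 and 4 higher unadjusted), with 1 lower at D28 without Untreated replicate 3. Either scaling gave 1, 0, 1 and 4 lower. Of 21 tested in U251, 7, 5, 8 and 5 were higher and 4, 5, 6 and 4 lower, the D14 number higher being 3 without D14 replicate 3. OSMR, the oncostatin M receptor, fell in U251 by 0.24, 0.30 and 0.26 at D3, D14 and D28 and rose in U87 by 0.39 at D28WO, which median-ratio scaling brought to 0.16 and no call. IL6ST, the shared chain of the interleukin-6 family, had -0.33 at D28 in U251, called but not without Untreated replicate 3 or D28 replicate 2 (range -0.41 to -0.27).

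Of 12 cytokine ligand genes tested in U87, 8, 0, 7 and 9 were higher and 0 lower at D3, D14, D28 and D28WO (limma; 9, 2, 8 and 9 higher at unadjusted p under 0.05). At D28WO in U87, 2 were lower with quantile scaling and 1 with median-ratio scaling. In U251, 5, 7, 7 and 5 of 13 were higher and 4, 1, 3 and 3 lower. The lower count at D14 in U251 was 0 without any 1 of the Untreated replicates or without D14 replicate 3.

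IL6, a ligand acting through STAT3, had U87 means of 53.9, 213, 62.8, 167 and 391 TPM and rose by 1.97, 1.63 and 2.84 at D3, D28 and D28WO, whereas in U251 it fell by 0.79 at D3. CSF3, a granulocyte growth factor, rose in U87 by 1.82, 1.16 and 2.00 at D3, D28 and D28WO and was not tested in U251, where its mean was at most 1.09 TPM.

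Of 18 inhibitors of the pathway, U87 had 3, 1, 4 and 6 higher (12.4%, 4.14%, 17.2% and 28.6% of all genes) and 1, 1, 2 and 3 lower (4.28%, 1.02%, 6.55% and 13.4%) at D3, D14, D28 and D28WO, and U251 had 6, 6, 7 and 5 higher and 6, 1, 7 and 2 lower. In U87, quantile scaling gave 2, 0, 2 and 2 higher and 1, 1, 4 and 3 lower, and median-ratio scaling gave 2, 0, 2 and 4 higher and 2, 3, 3 and 5 lower. The U87 number of 3 higher at D3 was 1 without D3 replicate 2. At D14 in U87 the 1 higher was 0 without Untreated replicate 1, Untreated replicate 3, D14 replicate 2 or D14 replicate 3, and the 1 lower was 0 with any 1 library left out. The lower number was 0 at D3 without Untreated replicate 3, D3 replicate 2 or D3 replicate 3, 1 at D28 without Untreated replicate 2, D28 replicate 1 or D28 replicate 3, and 1 at D28WO without Untreated replicate 3 or D28WO replicate 1. In U251 the lower number at D14 was 2 without D14 replicate 2 and 3 after either scaling, and at D28WO it was 1 without Untreated replicate 1 or D28WO replicate 2. SH2B3, an adaptor that restrains JAK2, had U87 means of 176, 139, 136, 132 and 145 TPM and fell by 0.41 at D28, whereas in U251 its means were 30.6, 40.7, 43.1, 54.0 and 34.6 TPM and it rose by 0.41, 0.49 and 0.81 at D3, D14 and D28. The other U87 calls of SH2B3 were lost with quantile scaling and without single libraries: D3 (-0.34) without Untreated replicate 3, D3 replicate 2 or D3 replicate 3 (range -0.39 to -0.27), D14 (-0.37) with any 1 library left out (range -0.42 to -0.30), and D28WO (-0.28) without Untreated replicate 3 or D28WO replicate 1 (range -0.34 to -0.20). PTPN11, a phosphatase, fell in U251 by 0.38 at D28.

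Of 7 genes commonly listed as STAT6 targets and tested in each line, U87 had 4, 0, 4 and 3 higher at D3, D14, D28 and D28WO with 0, 1, 0 and 0 lower (limma; 4, 2, 4 and 3 higher at unadjusted p under 0.05). U251 had 4, 6, 6 and 4 higher with 0, 0, 0 and 2 lower (limma; 4, 6 and 6 higher unadjusted at D3, D14 and D28). The U87 D3 number was 2 without D3 replicate 2, and the U87 D28 number was 2 with median-ratio scaling and as low as 2 without Untreated replicate 1, Untreated replicate 3 or D28 replicate 1. TGM2, a transglutaminase, rose in U87 by 0.81 at D3 and fell by 0.84 at D14, and rose in U251 by 1.00, 0.53, 1.38 and 0.63 at D3, D14, D28 and D28WO. Of 8 STAT5 targets, U251 had 5, 1, 4 and 2 higher (24.9%, 13.8%, 25.9% and 14.3% of all genes) and 2, 0, 2 and 1 lower (16.0%, 7.31%, 14.7% and 13.4%; limma, 1 higher and 1 lower unadjusted at D14). Median-ratio scaling gave 3 higher at D3 in U251, quantile scaling 0 higher at D14, and either scaling 1 lower at D14. Its lower number was 1 at D14 without D14 replicate 2, 1 at D28 without Untreated replicate 1, D28 replicate 2 or D28 replicate 3, and 0 at D28WO without Untreated replicate 1 or any 1 D28WO replicate. U87 had 1, 1, 3 and 4 higher and 0, 1, 0 and 0 lower (limma; 2, 4, 3 and 4 higher unadjusted). Its D14 numbers were 0 without D14 replicate 2 or D14 replicate 3 (lower also without Untreated replicate 3), and its D28WO number higher ranged from 1 to 3 without Untreated replicate 1, Untreated replicate 2, Untreated replicate 3, D28WO replicate 1 or D28WO replicate 2 and was 1 after either scaling, with 1 lower without Untreated replicate 2 or D28WO replicate 3. Quantile scaling gave 0, 1, 1 and 1 lower in U87 and median-ratio scaling 0, 1, 1 and 2. BCL6, a transcriptional repressor, rose in U87 by 0.83, 0.70 and 0.87 at D3, D28 and D28WO. BCL2L1, a survival gene, rose in U251 by 0.34 at D28. CCND1, the cyclin D1 gene, rose in U251 by 0.78 at D3 and 0.73 at D28, with -0.05 at D14 and -0.15 at D28WO.

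Of 13 STAT3 targets, U251 had 3, 2, 3 and 6 higher (24.9%, 13.8%, 25.9% and 14.3% of all genes) and 7, 4, 5 and 2 lower (16.0%, 7.31%, 14.7% and 13.4%). The D14 number higher was 1 without Untreated replicate 3, D14 replicate 1 or D14 replicate 3 and after either scaling, the D3 number was 1 with median-ratio scaling, and the D28WO number lower was 1 without Untreated replicate 3 or D28WO replicate 1. Of 12 tested in U87, 2, 2, 2 and 5 were higher and 1, 1, 2 and 0 lower (limma; 5 higher and 1 lower unadjusted at D28WO). Quantile scaling gave 2, 0, 2 and 5 higher and 0, 1, 0 and 0 lower in U87, and median-ratio scaling 1, 1, 2 and 2 higher and 1, 1, 3 and 1 lower. Single libraries moved these numbers to 1 higher at D3 without Untreated replicate 1, Untreated replicate 3 or D3 replicate 2, and to 0 lower at D3 without those or D3 replicate 3. At D14 the higher number was at most 1 without Untreated replicate 2, Untreated replicate 3, D14 replicate 2 or D14 replicate 3, and the lower number was 0 without Untreated replicate 3, D14 replicate 2 or D14 replicate 3. The lower number was at most 1 at D28 without Untreated replicate 3, D28 replicate 1 or D28 replicate 2, and 1 at D28WO without Untreated replicate 2. TIMP1, a protease inhibitor gene in that list, fell in U251 by 0.42 at D3 and had -0.02 at D28, and VEGFA, a vessel growth factor, fell by 0.45 at D28 in U251.

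With only the groups compared in the fit, several list counts in U87 were smaller. The numbers for all genes were smaller too. At D3, D14, D28 and D28WO they were 886, 54, 1861 and 6349 higher and 196, 5, 589 and 2892 lower. In the same order of groups, U87 then had 8, 0, 9 and 11 targets of STAT2 with IRF9 higher and 0 lower, 1, 0, 2 and 5 inhibitors higher and 0, 0, 1 and 2 lower, and 1, 0, 1 and 5 STAT3 targets higher and 0 lower. STAT5 targets were 2, 0, 2 and 3 higher and 0 lower, STAT6 targets 2, 0, 2 and 3 higher, and receptor chains 0, 0, 0 and 2 higher and 0, 0, 1 and 2 lower. In U251 that fit gave 4 ligands higher and 0 lower at D14, and 4 STAT3 targets lower at D28WO. STAT5 targets there were 3 higher at D3 and 0 at D14. Among all genes in U251 the fit called 4786, 2643, 5749 and 3009 higher and 3090, 1441, 3300 and 2895 lower. With no filter, U87 had 0 STAT3 targets lower, 0 receptor chains lower at D3, and 0 inhibitors lower at D3 and at D14. It also had 2 STAT6 targets higher at D28 and 3 cofactors higher at D28WO. U251 then had 4 STAT3 targets lower at D3. Among all genes in U87, no filter called 1832, 338, 2508 and 5363 higher and 493, 67, 830 and 2430 lower, in the same order. In U251 it called 4941 of all genes higher and 3198 lower at D3.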

How the data were processed

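Values were TPM, deposited by the authors; their notes name Trim Galore, STAR, featureCounts, FastQC and GRCh38, and how TPM was computed is not stated. The U87 table holds 2 columns with the same name, and both were left out. Each line was fitted separately in R 4.3.3 with limma 3.58.1 (trend) on log2(TPM + 1), all 5 groups together. Genes whose mean reached 0.5 TPM were tested, and p-values were adjusted by Benjamini-Hochberg over all of them; a call is an adjusted p under 0.05. Alternatives were a pseudocount of 0.1, no filter or 1 TPM, quantile and median-ratio scaling, only the groups compared, a replicate block, array weights, an added log2 fold change over 1, and leaving out each library. Positions came from GENCODE 44, read with Python 3.11.15. All members were named, with the 2 genes of highest mean TPM in each pathway list, genes compared with a member, and the 2 genes most like each member. The receptor chains IFNGR1 and IFNAR2 were also named. Members and lists were chosen with earlier results of these data known.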

Additional observations from a re-analysis of the deposited data

Results flagged for a closer look

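For 10 of 63 pairs of log2 fold changes (9 genes by 7 comparisons), every library of U87 stood on 1 side of its reference group and every library of U251 on the opposite side, which singled these values out. Against Untreated, STAT3 had 0.22 in U87 and -0.20 in U251 at D3, and 0.29 and -0.30 at D28. JAK1 had 0.28 in U87 and -0.28 in U251 at D3, 0.19 and -0.27 at D14, 0.28 and -0.28 at D28, and 0.37 and -0.13 at D28WO. STAT6 at D28WO had 0.46 in U87 and -0.57 in U251, where its level was near 1 TPM. For D28WO against D28, STAT3 had -0.0814 in U87 and 0.23 in U251, STAT5A had 1.24 and -0.29, and JAK2 had 0.45 and -0.23. With median-ratio scaling the U87 value of JAK1 was 0.08 at D3 and that of STAT3 was 0.09 at D28. The U251 value of STAT5A for D28WO against D28 turned to 0.0499 with quantile scaling. Among all 20473 genes tested in both lines, 4.44% to 8.85% met the same description in a comparison. The differences between the lines were not tested.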

How the results depend on the processing

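Of 56 called values of single genes, a filter at 1 TPM kept the call of 56, array weights of 55, a pseudocount of 0.1 of 54, quantile scaling of 49, no filter of 48, median-ratio scaling of 45 and a fit of only the groups compared of 41. Leaving out 1 library kept the call in 262 cases and lost it in 57. Direction of a called value turned in 1 case, STAT3 in U87 at D28WO (-0.0307 with median-ratio scaling). A left-out library can leave a U87 group with 1 library, which limma then assumes to vary like the others. The cause was not tested for any change given here.

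Counts of the 9 genes called moved as follows. With a log2 fold change over 1 also required, U87 had 3, 0, 3 and 3 for the treated groups in order of time against Untreated, 0 for D28 against D14 and 1 for D28WO against D28. U251 then had 2, 1 and 3 at D3, D14 and D28, 1 for D14 against D3 and 0 for D28WO against D28. Of 22918 genes in U87, 1340, 433, 1552 and 2933 were then higher and 88, 48, 140 and 485 lower against Untreated. D28 against D14 had 409 and 76, and D28WO against D28 had 712 and 555. Of 23667 genes in U251, 2301, 1118 and 2808 were higher and 1077, 245 and 792 lower at D3, D14 and D28. There, D14 against D3 had 756 and 779, and D28WO against D28 had 266 and 1926. A fit of only the groups compared gave U87 2 at D3, 0 at D14, 0 for D14 against D3 and 1 for D28 against D14. Among all genes that fit called 886 higher and 196 lower, 54 and 5, 0 and 0, and 239 and 68 in that order. Median-ratio scaling gave U87 0 at D14 and 4 at D28, and at D28WO 4 higher and 1 lower in place of 7 and 0. Among all genes it called 437 higher and 322 lower at D14, 2551 and 2916 at D28, and 4595 and 4722 at D28WO. Quantile scaling gave U251 5 at D14, with 2334 of all genes higher and 2313 lower. A pseudocount of 0.1 or no filter gave U87 2 for D28 against D14, and no filter gave U251 1 for D28WO against D28. With 1 library left out, U87 counts ran from 3 to 6 at D3, 0 to 2 at D14 and 1 to 2 for D14 against D3, with 1 each time for D28 against D14. The U251 count for D28WO against D28 then ran from 1 to 3.

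Values that were not called also turned. With median-ratio scaling in U87, STAT5B had -0.185 at D3, -0.0621 at D28WO and -0.00938 for D28 against D14, TYK2 had -0.169 at D3, -0.0733 at D14 and -0.143 at D28, and STAT6 had -0.0204 at D14, while STAT5A in U251 had -0.0648 at D14. With quantile scaling in U87, STAT5B had -0.254 at D3, -0.143 at D28WO and -0.0462 for D28 against D14, and TYK2 had -0.0152 at D3. With quantile scaling in U251, STAT4 had -0.0581 at D3 and 0.139 for D28WO against D28, and STAT5A had -0.219 at D14 and 0.0499 for D28WO against D28. JAK1 in U251 then had -0.00573 for D14 against D3 and 0.0130 for D28 against D14. Array weights gave -0.0501 for STAT5B and -0.00852 for TYK2 at D3 in U87, and -0.01001 for STAT5A at D14 in U251.

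With 1 library left out, U87 STAT5B ran from -0.209 to 0.204 at D3, -0.307 to 0.106 at D14, -0.304 to 0.109 at D28, -0.0468 to 0.366 at D28WO and -0.0741 to 0.0613 for D28 against D14. U87 TYK2 ran from -0.0684 to 0.101 at D3, -0.0464 to 0.105 at D28, -0.117 to 0.0340 at D28WO and -0.126 to 0.0191 for D28WO against D28. At D14 in U87, STAT3 ran from -0.0523 to 0.0504, STAT4 from -0.168 to 0.270 and STAT5A from -0.1602 to 0.149. In U251, STAT4 ran from -0.0727 to 0.576 at D3 and STAT5A from -0.128 to 0.158 at D14. JAK1 in U251 ran from -0.0246 to 0.0696 for D14 against D3 and from -0.0715 to 0.0462 for D28 against D14, where STAT5B ran from -0.279 to 0.0169.

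A replicate block was fitted although the numbers do not pair libraries: libraries with the same number had deviations that correlated between -0.058 and 0.047 in U87 (23 pairs) and between -0.037 and 0.048 in U251 (30 pairs). With the replicate block, 49 of the 56 calls were kept, and U87 had 1 gene called for D28 against D14. STAT3 and STAT5A at D14 in U87 then had 0.00693 and 0.0631, and STAT5B had -0.0390 for D28 against D14.

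TPM keep no counts, so what depth limits cannot be read here. How TPM was computed and on which strand reads were counted are not stated, so genes sharing exons (STAT5A with STAT5B, STAT4 with a pair of lncRNAs, STAT6 with LRP1 and NAB2, JAK1 with LINC01359) have uncertain values. The labels and the published methods give different IFN-γ doses and different days for Untreated. Untreated cells share no day with the D14, D28 and D28WO groups, so time in culture and treatment cannot be told apart. Groups of 2 or 3 libraries of a line give no view of other lines.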
